A study of Homo sapiens with 4 samples.

Results

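The response of FaDu cells to knockdown of TET1 was followed under normoxia, gene by gene. FaDu (FADU in the labels) is an established epithelial line from a squamous carcinoma of the hypopharynx, the part of the throat behind the larynx. Cells that carried a short hairpin RNA against TET1 (TET1-si) were set beside cells that carried a scrambled control, both kept in air with 5% CO2. Both hairpins were delivered in the lentiviral vector pLKO.1-puro, so the controls had also been infected. The normoxia libraries are called N-scr (scrambled) and N-si (TET1-si), and the same pair of lines after 19 h at 1% oxygen, 5% CO2 and 94% nitrogen is called H-scr and H-si. Each of the 4 groups had 1 library, and each knockdown state rests on 1 line of infected cells. The effect of the hairpin and any other difference between the infected populations cannot be told apart, and no difference below has a replicate check or a p-value. In a bulk library, fewer cells of a kind and less RNA per cell cannot be told apart either.

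The measure was FPKM (fragments mapped per length of transcript and per size of the library), as deposited. Members of the comparison were genes whose FPKM averaged 1 or more across the 4 libraries, with a gene ID on 1 row only and a locus of at least 300 bp. These were 14585 of the 62077 rows, of which 11998 were protein coding. The change of a gene is log2(FPKM + 0.1) in N-si less the same in N-scr, and a gene is called higher or lower where the change reached 1 or -1, which is 2-fold. Around a change stands, where given, the 95% counting interval of the log2 ratio, computed from approximate reads. It covers counting error only. The depth recovered from the values was 22900000 reads for N-scr and 24500000 for N-si.

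TET1 is a dioxygenase that oxidises 5-methylcytosine in DNA to 5-hydroxymethylcytosine, a step towards removal of the methyl mark, and it also binds transcription factors and chromatin proteins. TET2 and TET3 carry out the same chemistry. A short hairpin is processed to a guide RNA that pairs with its target transcript, and bases 2 to 8 of the guide, the seed, lead that pairing. Stratified squamous epithelium, the tissue FaDu cells derive from, is built on paired keratins, desmosomes and hemidesmosomes, and KRT5 and KRT14 mark its basal layer.

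The hairpin target in TET1 is shown with the bases that pair with the guide seed in capitals, because the same letters were then searched in other transcripts.
TET1 hairpin target: ccttgatagaatcACTCAGTt
The 21 bases lie at chr10:70451833-70451853 on the plus strand of GRCh37 (hg19), in exon 12 of 12 of the canonical TET1 transcript. The site starts 262 bases after the last coding base and so lies in the 3′ UTR. In the annotated transcripts of GENCODE v44lift37, 1 gene held the whole target, TET1 itself.

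TET1 (ENSG00000138336) was below the minimum for a member in these cells. It stood at 0.129 FPKM in N-scr and 0.0493 in N-si, on approximately 28 and 11 reads, and at 0.331 in H-scr against 0.122 in H-si. The knockdown library was lower in both oxygen states, and the interval of the log2 ratio under normoxia ran from -2.60 to -0.39. TET2 (2.67 FPKM in N-scr against 2.82 in N-si) and TET3 (5.08 and 5.58) were many times above TET1 per length in both libraries and changed by 0.08 and 0.13. Among 25 measured enzymes that write, read or remove DNA methylation, 1 was called higher and 0 lower, where 11.8% and 4.81% of all members were. Under hypoxia 1 of the 25 was called higher and 3 lower. The one called under normoxia was APOBEC3B, a cytidine deaminase, at 60.3 FPKM in N-scr and 135 in N-si, a change of 1.17. In the hypoxia pair APOBEC3B was at 47.2 FPKM in H-scr and 39.3 in H-si, a change of -0.26. DNMT3A, a de novo methyltransferase, was just short of the call, at 7.41 and 14.9 FPKM.

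Of the members, 1717 (11.8%) were called higher and 702 (4.81%) lower in N-si. The median change over all members was 0.16, so that the scale as deposited placed N-si slightly above N-scr, and 57.8% of members moved by less than 0.5 in either direction. A median-of-ratios scaling brought the median to -0.01, with 1308 genes higher and 982 lower, and an upper-quartile scaling gave 1399 and 897. The excess of higher over lower genes therefore shrank with the scaling, from 71.0% of called genes to 57.1% and 60.9%. Changes of at least 4-fold were seen in 378 genes upward and 177 downward, and of at least 8-fold in 101 and 77. The counting interval lay wholly above 0 for 1532 of the 1597 higher genes that had one, and wholly below 0 for 630 of 661 lower genes. The genes nearest to the threshold had changes of 1.00028 and 0.999939 upward and -1.00024 and -0.998443 downward. The share called differed with the level. Of genes with a mean of 1 to 2 FPKM, 23.4% were higher and 11.2% lower, against 2.30% and 3.14% of genes at 100 FPKM or more.

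**Figure D1:**
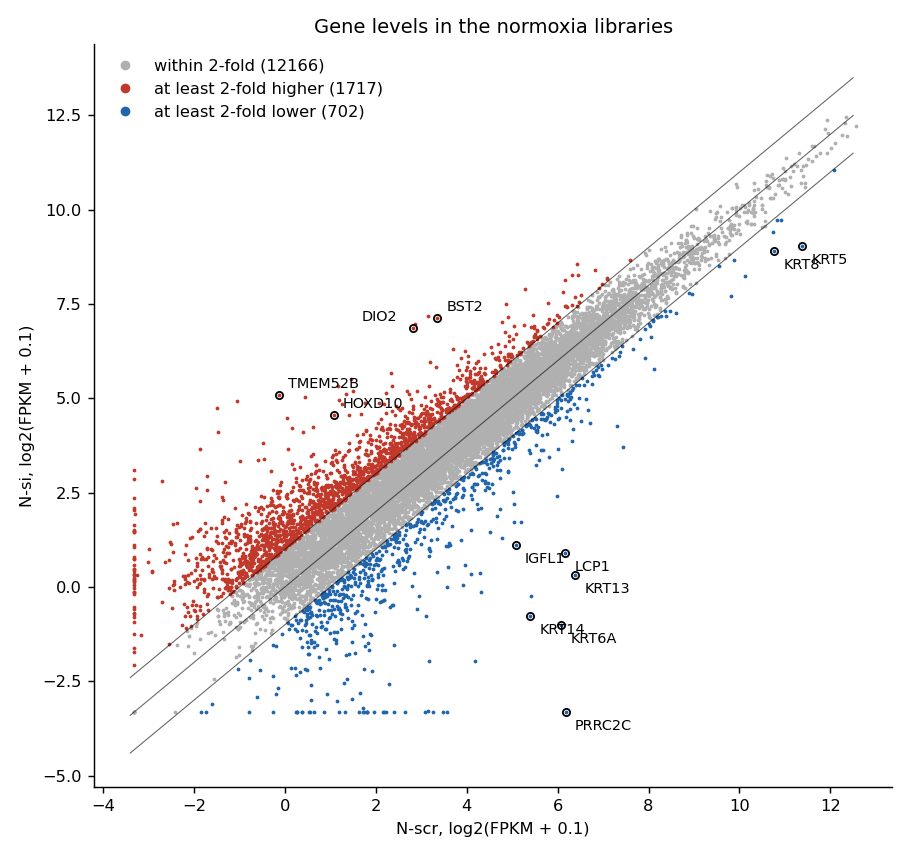
Level of each of the 14585 members in N-scr (x axis) and in N-si (y axis), both as log2(FPKM + 0.1), with lines at equal level and at 2-fold to either side. Most genes lie between the outer lines, KRT6A, KRT14, KRT13 and LCP1 lie far below them, and PRRC2C, listed at 0 in N-si, is one of 31 members on the lower edge that are listed at 0 in that library.

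Keratins made up 5 of the 15 lowest genes by the rule for named genes and 0 of the 15 highest. Of 10 measured basal and stratified keratins 6 were called lower and 0 higher, with a median of -3.04 against 0.16 for all members. KRT6A (ENSG00000205420, chr12:52880958-52887041, minus strand, hg19), a keratin of activated and tumour epithelium, was at 67.7 FPKM in N-scr against 0.394 in N-si, and at 109 in H-scr against 0.357 in H-si. Both TET1-si libraries were lower than both scrambled ones, 172-fold under normoxia, on approximately 3250 and 20 reads. KRT14 (ENSG00000186847, chr17:39738531-39743173), the basal partner of KRT5, was at 42.1 and 0.487 FPKM under normoxia and at 99.9 and 1.41 under hypoxia. KRT13 (ENSG00000171401, chr17:39657233-39661957), a keratin of the suprabasal layers of moist stratified epithelium, was at 83.9 and 1.16 FPKM under normoxia and at 121 and 3.48 under hypoxia. Its partner KRT4 was at 14.99 and 0.943 FPKM under normoxia. KRT15, a basal keratin, went from 174 FPKM in N-scr to 12.98 in N-si. KRT5 itself, the most abundant of these, stood at 2673 FPKM in N-scr and 524 in N-si, a change of -2.35 with an interval from -2.37 to -2.33.

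Not every keratin moved with them. KRT17 was at 1503 and 764 FPKM, a change of -0.98 just short of the threshold, and KRT16 was at 2.02 and 2.91 FPKM, a change of 0.51. KRT14, KRT16 and KRT17 lie next to one another on chromosome 17 and are near copies, so reads can be assigned to the wrong one. KRT10 was at 9.16 and 9.18 FPKM. Of 4 keratins of simple epithelia 2 were called lower. These were KRT8, at 1739 FPKM in N-scr against 481 in N-si, and its partner KRT18, at 1109 and 304, with changes of -1.85 and -1.87. KRT19 (434 and 255) and KRT7 (102 and 65.6) changed by -0.77 and -0.64. The pseudogene KRT16P6 (AC022596.6 in the table) and the lncRNA AC019349.5, which lies inside the KRT13 locus on the other strand, were lower too, at 0.805 against 19.7 and at 0.155 against 17.9 FPKM. Without strand, reads of AC019349.5 and KRT13 cannot be told apart.

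Beside the keratins, other parts of the squamous programme moved in both directions. LCP1 (ENSG00000136167, chr13:46700061-46786006, minus strand), the leukocyte plastin that bundles actin and is also made by many carcinoma lines, was at 71.7 FPKM in N-scr against 1.76 in N-si, and at 85.2 in H-scr against 0.583 in H-si. PLS3, the plastin of solid tissues, was at 176 and 140.5 FPKM. SOX2, a transcription factor of squamous lineage, was at 11.97 and 1.35 FPKM, a change of -3.06. TP63, which directs that lineage, was at 50.7 and 42.1 FPKM, a change of -0.27. Of 19 factors of squamous differentiation 5 were called higher, among them ZNF750 (0.301 and 1.66) and EHF (9.98 and 28.9), and 3 lower. The counts were 2 and 2 with a pseudocount of 1, and 3 and 3 with median-of-ratios or upper-quartile scaling. Of 13 genes of the cornified envelope 5 were higher and 3 lower, with CALML5 at 0.197 and 3.13 FPKM and TGM1, which crosslinks the envelope, at 7.89 and 2.13. With a pseudocount of 1 the counts were 3 and 2. SPRR1A, one of the 5, was at 0 and 0.596 FPKM on approximately 0 and 6 reads. It was at 7.42 FPKM in H-scr and changed by -3.28 under hypoxia.

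Among the anchors to the basement membrane, COL17A1, the transmembrane collagen of hemidesmosomes, was at 77.3 FPKM in N-scr and 26.1 in N-si. Of 21 measured genes of this group 3 were called lower and 1, ITGB5 (34.1 and 105), higher. Among 11 desmosome genes PKP2 was higher (26.5 and 74.4) and DSG3 lower (11.4 and 4.88). Genes of tight junctions and apical polarity leaned the other way. Of 23 measured, 7 were called higher and 0 lower, with a median of 0.52. CLDN1, a sealing claudin, was at 28.5 and 108 FPKM, CLDN9 at 0.166 and 2.68, OCLN at 5.76 and 14.3, and GRHL2, a factor that sustains epithelial junction genes, at 63.5 and 147. The count was also 7 and 0 under hypoxia. With median-of-ratios scaling it was 5 and 0 under normoxia.

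The 15 protein-coding genes with the largest gains, among those at a mean of 5 FPKM or more with an interval wholly above 1, were of mixed kinds. TMEM52B (ENSG00000165685, chr12:10323141-10344400), a small membrane protein, led them, with 0.811 FPKM in N-scr against 34.0 in N-si, and 2.60 against 71.7 in the hypoxia pair. Its locus overlaps that of OLR1, a receptor for oxidised lipoprotein on the other strand, which was at 8.80 and 144 FPKM in N-scr and N-si, so that the shared stretch cannot be split between them. RGL3, an exchange factor for Ral, was at 1.25 and 33.0 FPKM. CATSPER1, a calcium channel subunit of sperm, was at 0.936 and 22.3. ANXA9, an annexin of stratified epithelium, was at 0.621 and 14.1. SEMA3B, a secreted semaphorin, was at 2.14 and 40.2, DIO2, which activates thyroid hormone, at 6.90 and 117, and MATN2, a matrix adaptor, at 2.65 and 45.7. In all of these N-si was more than 8-fold above N-scr. WISP2 (CCN5), a matricellular protein, rested on approximately 4 and 125 reads, at 0.173 and 4.78 FPKM. The remaining genes were RP11-127I20.4 (SMIM22), RARRES1, COL5A1, BST2, UGT1A6 and EPHX2, with changes from 3.76 to 4.10. UGT1A6 shares its last exons with the other UGT1A genes, so its level is uncertain.

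The 15 lowest genes by the same rule also held secreted proteins. IGFL1, a small IGF-like protein of epidermis, was at 33.8 FPKM in N-scr against 2.05 in N-si, and at 179 in H-scr against 2.24 in H-si. FGFBP1, which releases fibroblast growth factors from the matrix, was at 63.5 and 5.26 under normoxia and at 258 and 9.69 under hypoxia. For both genes the 2 TET1-si libraries were close and both scrambled ones far higher. CXCL1, a chemokine for neutrophils, was at 27.4 and 2.35 FPKM. CALB2 (calretinin) was at 19.6 and 1.19, RAB3IL1 at 17.1 and 1.17, MCTP1 at 11.8 and 0.907, PADI3, an enzyme that citrullinates keratinocyte proteins, at 36.4 and 3.21, and SLC39A6, a zinc importer, at 32.8 and 3.22. PRRC2C headed the list by its numbers, at 72.1 FPKM in N-scr, 50.7 in H-scr and 93.9 in H-si, but was listed at 0 in N-si. The estimate may have failed there, since PRRC2C is abundant in the other libraries, and no fold is given.

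**Figure D2:**
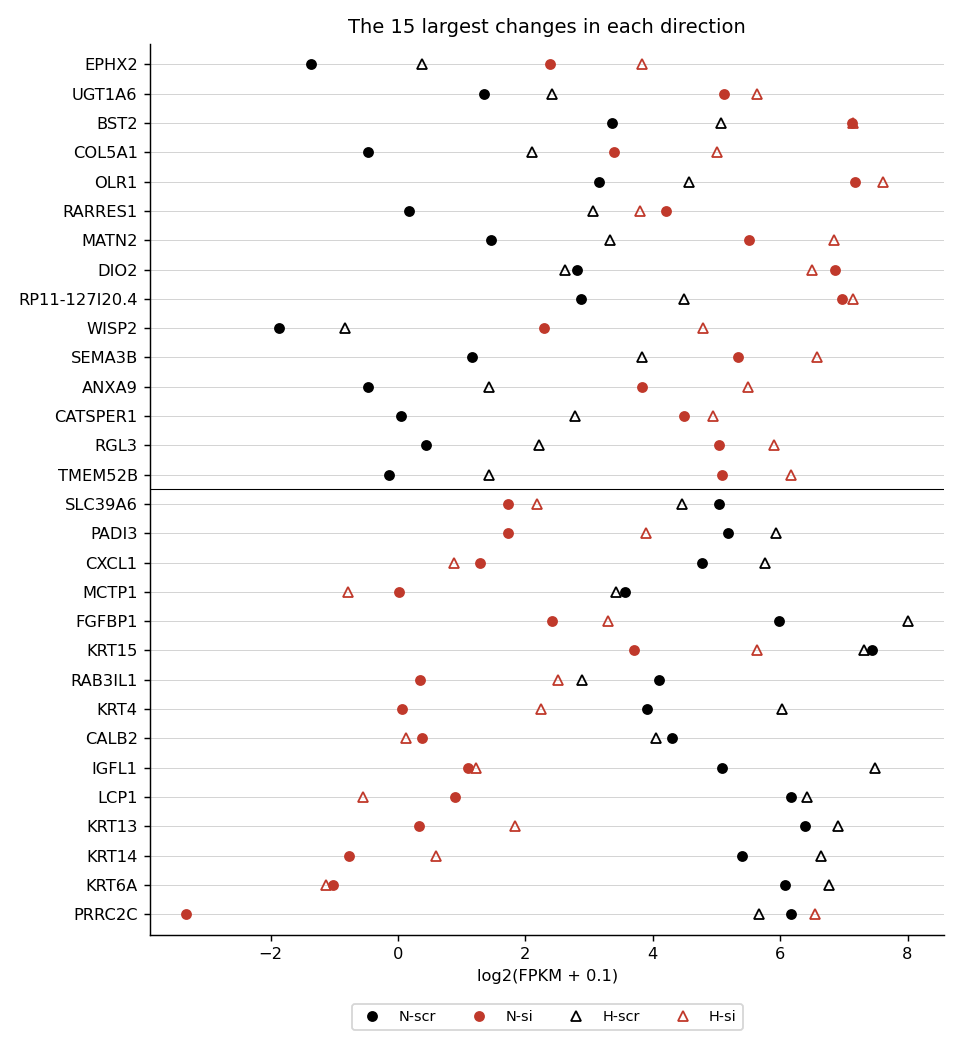
log2(FPKM + 0.1) in the 4 libraries (circles for normoxia, open triangles for hypoxia, black for scrambled, red for TET1-si) of the 15 protein-coding genes with the largest change in each direction under normoxia. The black and red symbols separate in both oxygen states for most genes, while RARRES1 and RAB3IL1 separate under normoxia and lie close together under hypoxia, and the value of PRRC2C in N-si is the listed 0.

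Promoters of some of these genes are shown for their CpG dinucleotides, the sites where TET enzymes act, which are in capitals. They run from 250 bases before to 50 after the start of the gene in RefSeq (GRCh38.p14), 5′ to 3′ on the strand of the gene. The first 2 genes in each direction with an entry are given, after PRRC2C. TMEM52B, CATSPER1, KRT6A, KRT14 and KRT13 are named only. RGL3 lies at chr19:11419265-11419564 on the minus strand and ANXA9 at chr1:150982042-150982341 on the plus strand, both higher in N-si. LCP1 lies at chr13:46182128-46182427 on the minus strand and IGFL1 at chr19:46229492-46229791 on the plus strand, both lower.
RGL3 promoter: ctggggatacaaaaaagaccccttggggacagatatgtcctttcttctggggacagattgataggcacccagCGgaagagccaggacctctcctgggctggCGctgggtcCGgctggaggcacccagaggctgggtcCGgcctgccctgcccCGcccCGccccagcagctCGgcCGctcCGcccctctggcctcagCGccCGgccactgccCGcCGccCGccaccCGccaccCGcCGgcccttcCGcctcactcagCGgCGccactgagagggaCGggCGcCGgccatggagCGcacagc
ANXA9 promoter: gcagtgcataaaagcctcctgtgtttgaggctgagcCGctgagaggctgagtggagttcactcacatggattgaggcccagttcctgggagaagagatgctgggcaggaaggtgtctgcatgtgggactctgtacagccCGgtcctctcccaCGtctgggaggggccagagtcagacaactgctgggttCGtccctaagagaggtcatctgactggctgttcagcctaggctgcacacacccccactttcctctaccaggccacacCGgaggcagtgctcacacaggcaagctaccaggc
LCP1 promoter: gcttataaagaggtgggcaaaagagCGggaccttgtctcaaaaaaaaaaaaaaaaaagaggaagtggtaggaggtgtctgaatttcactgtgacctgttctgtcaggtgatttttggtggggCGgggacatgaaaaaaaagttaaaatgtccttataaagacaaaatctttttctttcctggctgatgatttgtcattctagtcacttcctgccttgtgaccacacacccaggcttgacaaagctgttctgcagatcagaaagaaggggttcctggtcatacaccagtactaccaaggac
IGFL1 promoter: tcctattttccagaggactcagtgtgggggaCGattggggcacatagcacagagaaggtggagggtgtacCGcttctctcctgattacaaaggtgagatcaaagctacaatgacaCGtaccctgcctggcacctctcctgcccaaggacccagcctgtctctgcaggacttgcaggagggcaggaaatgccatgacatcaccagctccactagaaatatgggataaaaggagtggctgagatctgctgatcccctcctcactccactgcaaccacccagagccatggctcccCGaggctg
RGL3 holds 24 CpG and 72.0% G and C, and ANXA9 holds 5 CpG and 59.0%. LCP1 holds 2 and IGFL1 4, with 42.7% and 55.3%. The observed over expected CpG ratio, which corrects for base content, was 0.63 for RGL3 and 0.15 to 0.19 for the other 3.

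Such CpG-poor promoters were more frequent among called genes than among all. A promoter matched 9748 of the 11998 protein-coding members (81.2%), and 9.46% of them had a CpG ratio under 0.4. Among genes called higher the share was 17.2% (163 of 946), among genes called lower 23.6% (98 of 415), and among genes that moved by less than 0.25 it was 6.96%. The expression level moved with this class, at a median of 8.15 FPKM for CpG-poor genes and 19.7 for the others. At a mean of 20 FPKM or more, the shares were 22.2% of higher, 14.1% of lower and 5.91% of all genes. The median change of CpG-poor genes was 0.22 against 0.15 for the others, so as a class they spread to both sides. DNA methylation of these promoters was not analysed here.

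The letters ACTCAGT, which pair with the guide seed, were searched on the transcript strand in the 3′ UTR of the canonical transcript. Of 11757 protein-coding members with a 3′ UTR of at least 50 bases, 12.7% held them. The share was 11.7% of lower genes and 11.5% of higher genes. The median change was 0.14 with a site and 0.15 without. Transcripts with a site had longer 3′ UTRs, at a median of 3294 bases against 1134. By length, the medians with and without a site were 0.01 and 0.12 under 500 bases, 0.15 and 0.13 from 500 to 1000, 0.19 and 0.16 from 1000 to 2000, and 0.14 and 0.19 at 2000 or more, so the direction differed between the classes.

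Chemokines and cytokines were called lower more often than higher. Of 24 measured chemokines and cytokines of epithelium 13 were called lower and 2 higher, with a median of -1.25. The neutrophil chemokines were lower together. IL8 (CXCL8) was at 17.0 FPKM in N-scr and 2.74 in N-si, CXCL2 at 1.96 and 0.512, and CXCL3 at 2.45 and 0.189, the last on approximately 48 and 4 reads. Of the interleukin 1 family, IL1B was at 14.53 and 2.26 FPKM, IL1A at 13.7 and 5.54, and their antagonist IL1RN at 12.3 and 2.07. IL36G was at 1.09 FPKM in N-scr and listed at 0 in N-si. LTB, a membrane lymphotoxin, was at 11.6 and 2.03. TSLP (1.30 and 3.88) and IL24 (1.42 and 4.27) were the higher ones. Under hypoxia 18 of the 24 were lower and 1 higher. With a pseudocount of 1 the normoxia count was 9 lower and 2 higher. Of 21 NF-kB subunits and feedback targets 3 were lower, TNFAIP3 (49.7 and 12.2), NFKBIZ (16.8 and 7.84) and ICAM1 (36.8 and 17.9), and 0 higher, and the median was -0.18.

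In the TGF-beta and BMP pathway, ligands and their antagonists moved on both sides, 4 of 20 higher and 3 lower. INHBB, the beta B chain of activin, was at 0.204 FPKM in N-scr and 7.54 in N-si, on approximately 14 and 552 reads, and FST, the activin antagonist follistatin, at 105 and 20.4. TGFB2 was at 14.51 and 66.5 and LTBP3, which holds latent TGF-beta in the matrix, at 79.7 and 308. BMP7 was at 3.07 and 8.85, while BMP2 was at 2.26 and 0.459 and the BMP target ID1 at 86.4 and 26.8. Under hypoxia the changes were 3.84 for INHBB, -3.68 for FST, 2.37 for TGFB2, 1.97 for LTBP3, 2.62 for BMP7 and -1.82 for BMP2. ID1 changed by -0.96 there and was not called. Among IGF genes, IGFBP3 was at 68.1 and 8.68 FPKM and IGFBP7 at 4.36 and 17.9, with 2 of 12 higher and 3 lower. Of 11 CCN genes and YAP targets 6 were higher and 2 lower. CYR61 (CCN1) was at 112 and 337 FPKM and its relative CTGF (CCN2) at 8.74 and 3.10, in opposite directions.

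Of 16 genes of MAPK feedback 5 were called higher, with ETV5 at 2.93 and 16.1 and DUSP8 at 0.306 and 2.01 FPKM, and 2 lower, ETV1 (3.90 and 1.42) and DUSP4 (4.33 and 1.69). Under hypoxia the count was 1 higher and 5 lower. Of 13 immediate-early genes 4 were higher and 0 lower, ATF3 at 6.49 and 34.5, FOS at 2.38 and 6.64, MAFK at 5.51 and 12.8 and JUND at 3.08 and 6.64. Under hypoxia 1 of the 13, MAFK, was higher and 2 were lower, and the median was -0.23 against 0.57 under normoxia. In the EGF receptor family and its ligands 3 of 13 were higher and 2 lower, with the negative regulators on opposite sides, ERRFI1 at 8.49 and 27.6 and LRIG1 at 4.06 and 0.947. For this family the hypoxia count was 0 higher and 4 lower. In the WNT pathway 7 of 24 were higher, among them the receptors LGR6 (1.43 and 4.79) and LGR4 (3.52 and 10.2), and 2 lower, FZD10 (1.89 and 0.477) and WNT7B (45.2 and 22.2). Of 13 Notch genes 2 were higher and 1 lower. HES2 was at 0.129 and 1.14 FPKM and MFNG, which glycosylates Notch, at 54.5 and 16.7.

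Secreted proteases and their inhibitors were called in both directions. Of 5 kallikreins 4 were called higher and 0 lower, with KLK6 at 38.6 FPKM in N-scr and 240 in N-si, KLK10 at 14.2 and 45.2 and KLK5 at 17.7 and 55.7. Of 21 metalloproteinases and plasminogen genes 7 were higher and 2 lower. MMP13 was at 13.7 and 59.6, MMP2 at 0.597 and 3.12, MMP1 at 9.07 and 26.6 and the membrane-bound MMP14 at 24.9 and 65.8. The urokinase gene PLAU was lower, at 223 and 95.3, and so was its inhibitor SERPINE2, at 22.0 and 6.61. Under hypoxia 3 of the 21 were higher and 4 lower, and MMP13 changed by -0.08 there. Of 16 EMT factors and mesenchymal genes 7 were higher, all but CDH2 (10.8 and 22.9 FPKM) being matrix proteins or MMP2, with COL5A1 at 0.624 and 10.5 and COL6A1 at 3.37 and 17.7. The 5 lower ones included FN1 (12.48 and 4.24) and the EMT factor TWIST1 (5.83 and 1.60). With a pseudocount of 1 the counts for these 16 genes were 7 higher and 2 lower. With median-of-ratios or upper-quartile scaling they were 6 and 6. CDH1, E-cadherin, was at 179 and 267 FPKM, a change of 0.57.

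Of 29 measured HOX genes, which keep a record of position along the body axis, 4 were called higher and 1 lower. HOXD9, HOXD10 and HOXD11, neighbours on chromosome 2, were at 0.296, 2.01 and 1.02 FPKM in N-scr and at 3.54, 23.5 and 9.46 in N-si. Under hypoxia they were at 0.637, 1.98 and 0.846 in H-scr and at 7.59, 39.9 and 13.6 in H-si, so that both TET1-si libraries were above both scrambled ones. HOXD8 (4.75 and 6.58) and HOXD13 (1.27 and 2.01), further out on either side, changed by 0.46 and 0.62. The 50 neighbouring genes of chromosome 2 around this stretch had a median change of 0.65, with 13 called higher. Outside that stretch HOXB9 was higher (0.980 and 4.45) and HOXA11 lower (2.83 and 1.16), and the other 24 were not called. Of 12 imprinted genes 3 were lower, PEG10 at 51.2 and 12.2 FPKM, PLAGL1 at 30.0 and 8.26 and GRB10 at 13.6 and 4.005, and 0 higher. PEG10 and GRB10 lie on chromosome 7, whose protein-coding members had a median change of -0.26, with 9.95% called lower. The part of position in their change was not tested. Of 34 histone methylation and Polycomb genes 3 were higher and 0 lower, where 11.8% and 4.81% of all members were. The 3 were the histone demethylase genes KDM4C (13.7 and 47.6), KDM6B (8.58 and 25.4) and KDM5B (3.87 and 10.6). KDM4C lies in a stretch of 50 neighbouring genes on chromosome 9 of which 13 were higher.

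Metabolic genes were called in both directions under normoxia. Of 29 genes of cholesterol synthesis and uptake 2 were called higher and 3 lower, against 1 and 23 under hypoxia. Among the lower ones were STARD4, a sterol carrier, at 17.0 and 5.34 FPKM and CYP51A1, a demethylase of sterol synthesis, at 53.7 and 21.9. The list as a whole had a median of -0.44, with 22 of the 29 below 0. INSIG1 was at 23.7 and 14.7 FPKM, SQLE at 141 and 83.3, FDPS at 154 and 125, and APOC1 at 5.09 and 1.36 on approximately 35 and 10 reads. Of 20 genes of fatty acid synthesis 3 were higher and 2 lower, with the desaturase SCD at 79.5 and 14.4 and its relative SCD5 at 2.201 and 8.17. Of 21 glycolysis genes 2 were higher, the lactate exporter SLC16A3 (29.9 and 144) and ENO2 (10.7 and 26.9), and 1 lower, SLC2A3. Of 32 hypoxia-inducible genes 6 were higher and 5 lower, with PDK1 at 1.71 and 6.16 and ADM at 21.1 and 6.94. Of 17 genes of the HIF machinery EPAS1 (13.3 and 26.8), EGLN3 and ARNT2 were higher and EGLN2 (41.9 and 19.5) lower. All 3 higher calls were lost with a pseudocount of 1 and with median-of-ratios or upper-quartile scaling. Of 24 NRF2 targets 6 were higher and 0 lower, with OSGIN1 at 2.39 and 11.2 and the cystine carrier SLC7A11 at 6.55 and 18.1.

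The machinery of growth held few calls in N-si, and so did all members at high level. Of members at a mean of 20 to 50 FPKM 5.87% were higher and 3.04% lower, and at 100 FPKM or more 2.30% and 3.14%. The lists were not compared with genes of equal level. In 45 genes of DNA replication 1 was higher, CCNE2 (13.8 and 28.8 FPKM), and 1 lower, MCM5 (154 and 66.3). Under hypoxia 0 were higher and 31 lower. In 42 mitosis genes 0 were higher and 1 lower, the cyclin CCNA2 (64.6 and 22.0), against 0 and 12 under hypoxia. Of 46 cytoplasmic ribosomal proteins 1 was lower, RPS16, and of 30 genes of ribosome biogenesis 2 were lower, FBL (496 and 219) and WDR12. The medians were -0.20 and -0.35 against 0.16 for all members, with 36 of the 46 and 23 of the 30 below 0. With median-of-ratios or upper-quartile scaling 4 of the 30 were lower. In 36 genes of mitochondrial complex I 1 was higher and 1 lower. None of 23 endoplasmic reticulum chaperones and none of 18 antigen presentation genes was called. Of 24 G1 cyclins and inhibitors 3 were higher and 0 lower, among them the CDK4 and CDK6 inhibitors CDKN2B (3.66 and 14.7) and CDKN2C (10.1 and 31.3). Of 25 p53 targets 3 were higher and 2 lower, RRM2B at 25.9 and 86.4 and BAX at 261 and 122. Among 23 heat shock genes HSP90AA1 was lower (1932 and 855) and HSPB8 higher, at 0.0809 and 3.07 FPKM on approximately 3 and 124 reads, with an interval from 3.69 to 7.57.

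The interferon-stimulated genes held some of the largest gains without a shift of the list. Of 42 measured, 8 were called higher and 4 lower, with a median of 0.20 against 0.16 for all members. BST2 (tetherin) was at 10.1 FPKM in N-scr and 140.5 in N-si, IFITM2 at 4.93 and 51.0, MX2 at 0.486 and 3.29 and RSAD2 at 1.33 and 6.58. IFITM1, the neighbour and relative of IFITM2, was lower, at 63.0 and 29.3, and IFI27 was at 46.1 and 17.4. Reads of IFITM1 and IFITM2 can be exchanged, since the genes are close copies. Under hypoxia 2 of the 42 were higher and 21 lower. Of 17 sensors of double-stranded RNA and RNA interference proteins 1 was higher, EIF2C1 (AGO1, 3.16 and 6.99), and 0 lower. Of 13 mucins and secretory genes 5 were lower and 2 higher. CEACAM6 was at 2.97 FPKM in N-scr and listed at 0 in N-si, AGR2 was at 3.70 and 0.114 on approximately 126 and 4 reads, and LCN2 at 64.4 and 12.4, while LY6K was at 2.30 and 28.8.

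**Figure D3:**
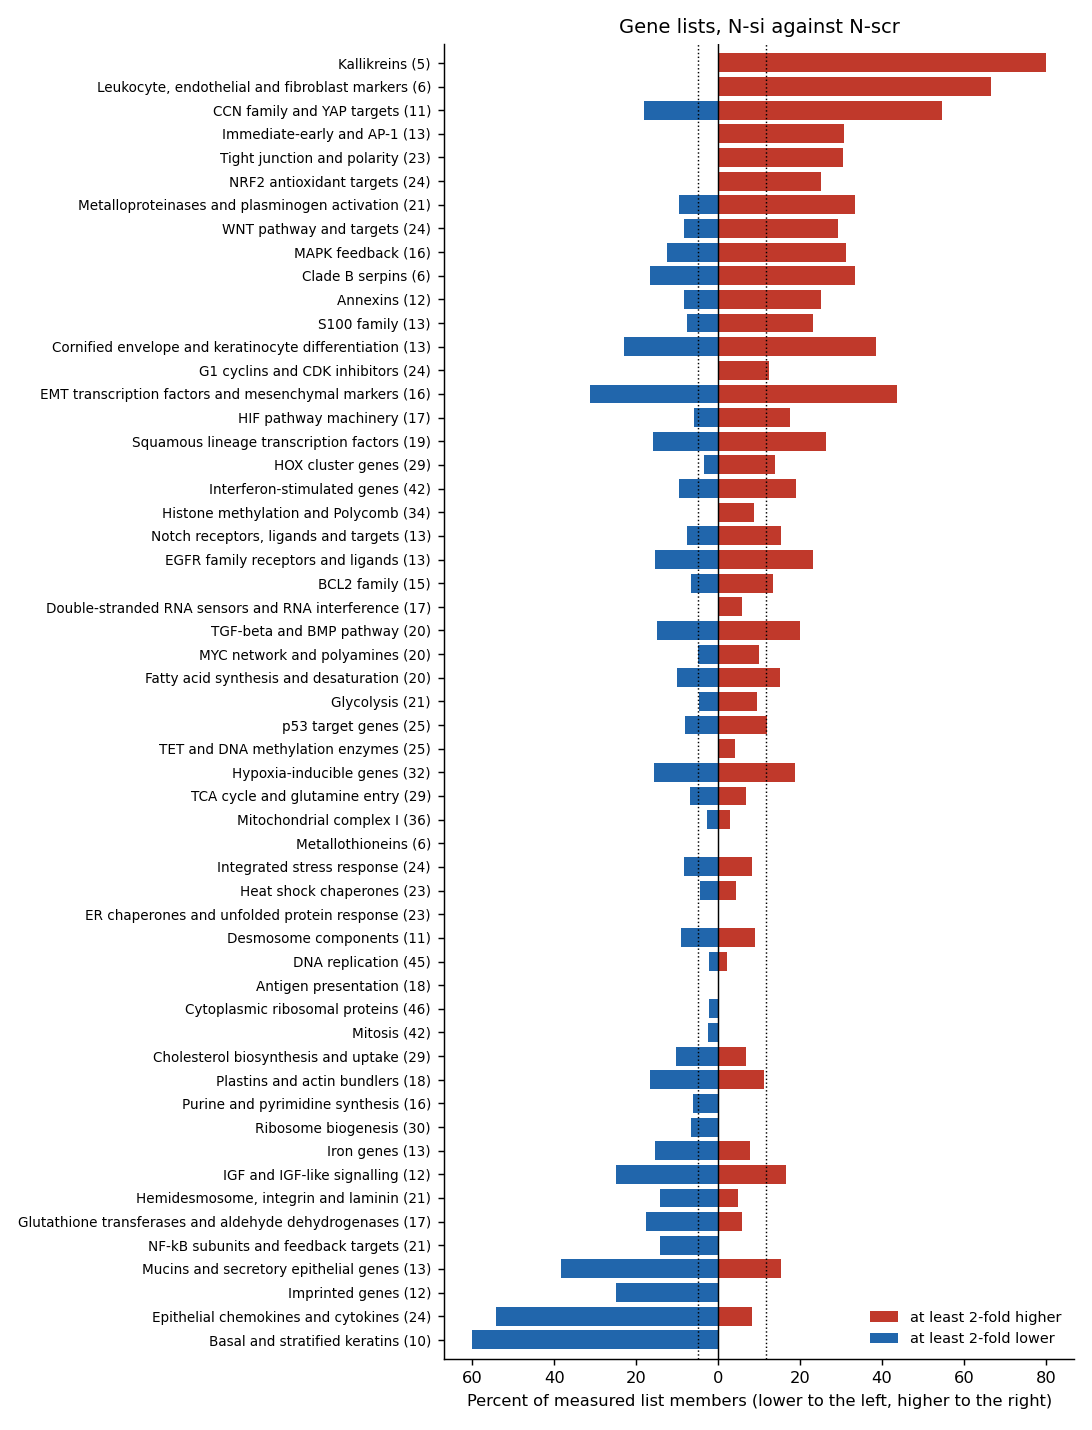
Percent of the measured members of each gene list with at least 5 members (number in parentheses) called higher (red, to the right) or lower (blue, to the left) in N-si, with dotted lines at the share of all members (11.8% higher and 4.81% lower). Kallikreins (4 of 5 higher) stand at the top, stratified keratins (6 of 10 lower) and epithelial chemokines and cytokines (13 of 24 lower) at the bottom, and ribosomal, replication and mitosis genes have short bars. The dotted lines are not matched for level, and genes at high level were called less often.

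The remaining lists held 0 to 5 calls each, where 11.8% of all members were called higher and 4.81% lower. Their counts were not tested against these shares. Of 13 S100 genes 3 were higher, with S100A9 at 2.998 and 12.9 FPKM, and 1 lower. Of 12 annexins 3 were higher and ANXA6 lower (8.22 and 2.83), and of 6 clade B serpins 2 were higher and SERPINB13 lower (10.2 and 2.86). The 2 higher serpins were lost with a pseudocount of 1 and with median-of-ratios or upper-quartile scaling. In 15 BCL2 family genes 2 were higher and 1 lower, in 24 genes of the integrated stress response 2 and 2, in 29 genes of the TCA cycle 2 and 2, and in 20 genes of the MYC network 2 and 1. Of 17 glutathione transferases and aldehyde dehydrogenases 1 was higher and 3 lower, and ALDH2, which clears acetaldehyde, was at 3.26 and 0.123. Of 13 iron genes 1 was higher and 2 lower, of 18 actin bundlers 2 and 3, and of 16 genes of purine and pyrimidine synthesis 0 and 1. None of 6 metallothioneins, 3 clustered protocadherins or 2 cancer-testis genes was called, and the single alkaline phosphatase above the minimum, ALPP, was higher (0.502 and 1.96).

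The cell type was checked against its markers. All 14 squamous markers were at 1 FPKM or more in N-scr and 12 in N-si, where KRT6A and KRT14 fell below. The summed level of the 14 was 6610 FPKM in N-scr and 3638 in N-si. Most of that difference lay in KRT5 (2673 and 524) and KRT17 (1503 and 764). TP63 and SERPINB5 changed by -0.27 and -0.30, and S100A2 (1688 and 1960) and PKP1 (2.69 and 4.62) were higher in N-si without a call. The 5 general epithelial markers were at 1 or more in every library. Of the leukocyte markers PTPRC and CD3E were at 0 in both normoxia libraries, and of the fibroblast markers COL1A2, DCN and LUM were. The list of leukocyte, endothelial and fibroblast markers nevertheless had 6 members, of which 4 were called higher and 0 lower. CDH5 (VE-cadherin) was at 8.75 and 21.7 FPKM, COL1A1 at 5.29 and 13.96, CD14 at 1.44 and 3.43 and VWF at 0.160 and 0.457. The leukocyte marker CD68 was at 21.3 and 26.3 FPKM, a change of 0.31 that was not called. The summed level of the markers was 22.7 and 29.8 FPKM for leukocytes, 8.91 and 22.2 for endothelium and 5.30 and 14.1 for fibroblasts. CD68 made up most of the leukocyte sum. The part of these markers in the other differences was not tested.

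Among genes of other types, 19.2% of 1668 lncRNAs were called higher and 5.88% lower, against 10.3% and 4.51% of protein-coding genes. Of all members at a mean of 2 to 5 FPKM, 20.5% were higher and 7.26% lower. The types were not compared at equal level, so whether these shares are particular to lncRNAs was not tested. The lncRNA RP11-438N16.1 (LINC01234) was at 42.7 FPKM in N-scr against 0.751 in N-si, and at 23.2 and 0.446 under hypoxia. RPL39P5, a copy of a ribosomal protein gene, was at 0.260 and 17.2 FPKM, NARF-AS2 (RP13-20L14.6) at 0.303 and 6.82 and LINC01213 (RP11-167H9.6) at 0.560 and 10.2. CTB-50E14.6 (LIPE-AS1) was at 0.0539 and 6.95, on approximately 2 and 215 reads, with an interval from 4.78 to 9.71. LINC00674 was at 15.6 and 1.40 in N-scr and N-si, but at 11.7 and 13.1 under hypoxia. RP11-545P7.4 was listed at 0 in N-si and RP11-104H15.8 at 0 in N-scr.

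Called genes were unevenly spread over the chromosomes. On chromosome 21, 44 of 115 protein-coding members (38.3%) were higher and 3 lower, on chromosome 17 115 of 751 (15.3%) were higher and 15 lower, and on chromosome 7 26 of 553 were higher and 55 (9.95%) lower. In 229 windows of about 50 neighbouring genes, 27 medians lay over 0.3 above the median of all and 40 over 0.3 below it. All 27 and all 40 lay on the same side under hypoxia. Of all protein-coding members 1239 were higher and 541 lower, and with the median of its window taken from each gene 888 were higher and 551 lower.

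**Figure D4:**
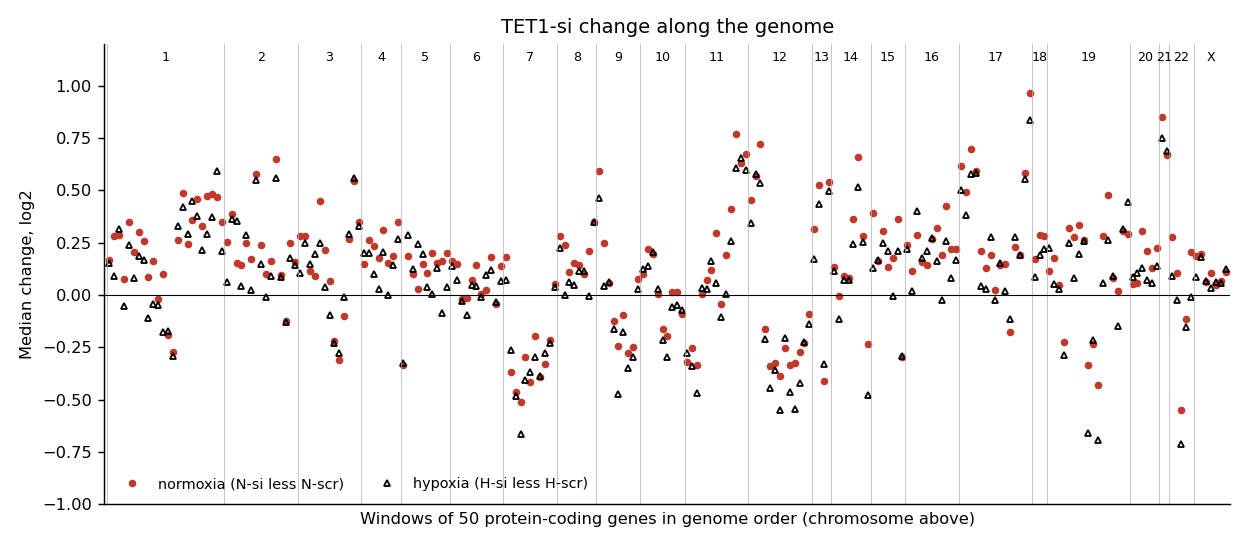
Median change in 229 windows of protein-coding genes in genome order, under normoxia (red circles) and under hypoxia (black triangles), with the chromosome named above. Both medians lie above 0.6 in the 2 windows of chromosome 21 and below 0 in most windows of chromosomes 7 and 12, and a window at the end of chromosome 17 reached 0.97 under normoxia.

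The comparison of knockdown with control under hypoxia used a separate pair of libraries, so that it can be set beside the one under normoxia. There, 1677 of the 14585 members (11.5%) were called higher and 1144 (7.84%) lower. Of the 1717 genes higher under normoxia 949 (55.3%) were also called higher under hypoxia and 27 (1.57%) lower. Of the 702 lower genes 422 (60.1%) were also called lower and 23 (3.28%) higher. Among genes of at least 4-fold change, the same call was made for 283 of 378 higher and 147 of 177 lower genes. Taken from the hypoxia side, 56.6% of its higher genes but 36.9% of its lower genes were called the same way under normoxia. Of the genes with the largest changes, 14 of 15 higher ones and 13 of 15 lower ones were called the same way, the exceptions being RARRES1, RAB3IL1 and PRRC2C. RARRES1, a retinoid-induced gene, was at 1.02 and 18.3 FPKM under normoxia and at 8.21 and 13.8 under hypoxia. RAB3IL1 was at 17.1 and 1.17 under normoxia and at 7.31 and 5.58 under hypoxia. The Spearman correlation of the changes across the 14585 genes was 0.67, as a description. The points share gene models and lengths but no library, and genes are not independent.

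**Figure D5:**
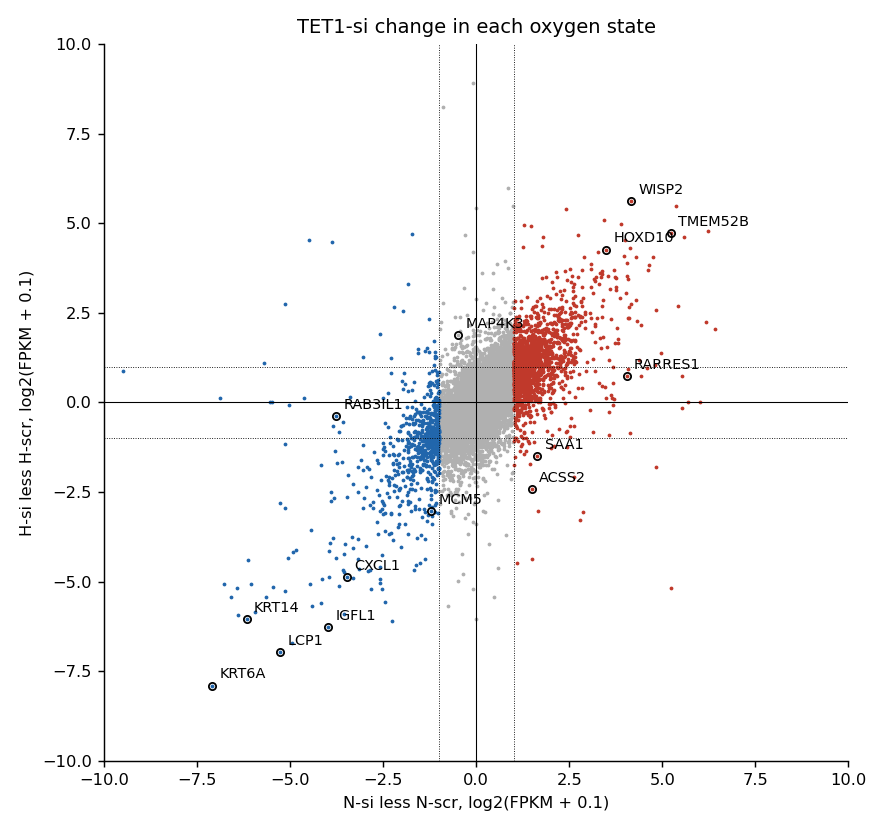
Change of each member under normoxia (x axis) and under hypoxia (y axis), both as the difference of log2(FPKM + 0.1) between TET1-si and scrambled, with dotted lines at 1 and -1, red for genes called higher and blue for genes called lower under normoxia. KRT6A, KRT14, LCP1 and IGFL1 lie far out in the lower left and TMEM52B, WISP2 and HOXD10 in the upper right, while ACSS2 and SAA1 lie at the lower right.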

How the data were processed

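RNA of 4 FaDu libraries was sequenced from mRNA (TruSeq, HiSeq2000). The authors aligned the reads to hg19 with TopHat and estimated FPKM with Cufflinks on an Ensembl annotation, and deposited 1 table of FPKM. Versions are not given in the sources used here, nor is strand. The labels give single-end and the methods paired-end reads.

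From these values, log2(FPKM + 0.1) was compared between TET1-si and scrambled libraries. Repeated IDs (79 genes with a mean of at least 1) and loci under 300 bp (472) were left out. Low values were whole multiples of 1 read (96.9% to 97.4% within 0.05), which gave depths of 22500000 to 24500000 reads, approximate reads per gene and 95% Clopper-Pearson intervals, for counting error only. With 1 library per group no test was made. The scripts were tested on simulated data. Members and gene lists were chosen with earlier results of these data known. Named were the 15 protein-coding genes with the largest change each way (mean of at least 5 FPKM, interval beyond 1 or -1). From each list up to 4 members were taken by largest absolute change, called or not. Also named were 5 genes of other types each way, and 5 each way whose sign differed under hypoxia. Others were chosen after their values were seen. Gene types came from GENCODE v44lift37 (GRCh37; 407 members had none, 105 were typed by symbol) and promoters from RefSeq (GRCh38.p14). Alternatives were the pseudocount, the filters, the scaling and window centring. Python 3.11.15, pandas 2.3.3, NumPy 2.4.6, SciPy 1.17.1 and matplotlib 3.10.9 were used. Some genes are not reported here.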

Additional observations from a re-analysis of the deposited data

Results flagged for a closer look

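Among protein-coding genes with a mean of at least 5 FPKM, 68 were higher in TET1-si cells under normoxia and at least 2-fold lower under hypoxia, and 11 the reverse, with both counting intervals beyond 0. The 5 with the largest normoxia change in each direction are given. With 1 library per group the difference between the oxygen states was not tested, and no library could be checked as standing apart within its group. Higher under normoxia and lower under hypoxia were SAA1, an acute-phase protein (1.641 and -1.50), XAF1, an interferon-inducible gene (1.552 and -1.10), ACSS2, which makes acetyl-CoA from acetate (1.487 and -2.42), LGALS9, a galectin (1.455 and -1.71), and the receptor gene FGFR4 (1.419 and -1.14). SAA1 rested on approximately 29 and 97 reads under normoxia. Lower under normoxia and higher under hypoxia were the calcium channel gene TRPV6 (-0.795 and 1.36), the kinase gene MAP4K3 (-0.479 and 1.87), CCDC80 (-0.471 and 1.08), CAMSAP3, which binds microtubule minus ends (-0.470 and 1.03), and ZNF350 (-0.402 and 1.03). None of these 5 genes reached a 2-fold change under normoxia.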

How the results depend on the processing

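No paired analysis was possible because each group had 1 library, and for the same reason no library could be left out. The 1717 higher genes became 1060 with a pseudocount of 1, 819 at a mean of at least 5 FPKM, 3523 with no filter and 888 with the window median removed, a setting limited to protein-coding genes (1239 without it), and the 702 lower genes became 452, 333 and 2101 under the first 3 of these. The share of called genes that were higher, 71.0% as reported, was 62.6% with no filter, 57.1% with median-of-ratios, 60.9% with upper-quartile and 73.9% with TPM scaling, 68.6% with no locus minimum and 61.7% with the window median removed (69.6% in protein-coding genes without it). The share of higher genes with the same call under hypoxia (55.3%) was 52.8% with a pseudocount of 1, 44.9% with no filter, 59.8% with TPM and 52.3% with the window median removed (56.1% in protein-coding genes without it). That of lower genes (60.1%) was 40.1% with no filter, 55.0% with no locus minimum and 66.7% in protein-coding genes. Fewer or more genes entered by construction under the filters, and for the others the cause was not tested. The ALPP change was 0.98 with a pseudocount of 1. Leaving out genes listed at 0 in a normoxia library was chosen after seeing the data. The lower count was 982 with median-of-ratios and 897 with upper-quartile scaling. No named gene, list or chromosome median that was called turned its direction. Besides the HIF machinery and the serpins, all higher calls were lost with a pseudocount of 1 in the iron and MYC lists, with median-of-ratios and upper-quartile scaling in the DNA replication and complex I lists, with all 3 settings in the double-stranded RNA list, and with median-of-ratios scaling in the DNA methylation list. All lower calls were lost with a pseudocount of 1 in the glycolysis, HOX, S100 and WNT lists. List medians near 0 changed sign with the scaling, such as that of the HOX genes (-0.01, and 0.03 with TPM). Genes on few reads, such as TET1, limit what this depth can show.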

Other observations

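Gene families were also counted by symbol, and these were chosen after their values were seen. Of 17 semaphorins 7 were higher in N-si and 2 lower, and 7 and 1 under hypoxia. SEMA4B, the most abundant of those lower, was at 276 FPKM in N-scr and 54.6 in N-si. Of 19 collagens 7 were higher and 2 lower in both oxygen states, with COL9A3 at 3.91 and 18.4 FPKM and COL8A1 at 3.22 and 0.310. Of 3 epoxide hydrolases 2 were higher, EPHX2 and EPHX1, the latter at 22.9 and 82.0 FPKM. Of 17 clustered histone genes 1 was higher, HIST3H2A (20.7 and 72.7), and 7 lower, among them HIST1H1C (20.2 and 8.09), against 3 and 3 under hypoxia. The counting intervals of HIST1H2BC and HIST4H4, which are among the 7, include 0. Of 405 ZNF genes 41 were higher and 5 lower, and 45 and 12 under hypoxia, where 11.8% and 4.81% of all members were higher and lower under normoxia and 11.5% and 7.84% under hypoxia.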
